A study of Homo sapiens with 11 samples.

Results

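The MEIS, PBX and PKNOX genes examined here encode TALE-class partners of HOX proteins. The members were chosen by symbol, as the 7 rows MEIS1, MEIS2, MEIS3, PBX3, PBX4, PKNOX1 and PKNOX2 among the 38557 annotated genes of a table of RNA sequencing counts. The rule itself uses no measured value, but it was written with earlier results of these data known. The cells were MOLM-13, an established line from a human acute myeloid leukemia (AML) that carries a KMT2A rearrangement, so all groups represent a single line. For 72 h they received DMSO as solvent (4 libraries), MI-503 at 1 µM, which blocks Menin (4 libraries), or MI-503 at 1 µM plus the PSMB8 inhibitor PR-957, also called ONX-0914, at 100 nM (3 libraries, numbered 1, 2 and 4), here the combination. PR-957 without MI-503 was not analyzed here. The sources do not state that libraries of a group came from separate cultures, so each p-value measures only the spread between these libraries, which may be technical.

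TALE proteins carry an amino acid loop extension in their homeodomain. PBX proteins bind DNA together with HOX proteins, and MEIS and PKNOX (PREP) proteins bind PBX proteins and help to hold them in the nucleus. In KMT2A-rearranged AML, MEIS1 and PBX3 are known as cofactors of HOXA9, and Menin tethers the KMT2A fusion protein to chromatin at genes of this program.

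Libraries held 18.9 to 41.2 M counted fragments, and 14683 genes with enough counts were tested. Combination replicate 1 stood apart: its chi-square statistic divided by the degrees of freedom was 19.4 against replicate 2 and 33.3 against replicate 4, where all other pairs within a group lay between 1.71 and 5.97. Of 11 myeloid markers, 10 reached 1 CPM (counts per M fragments of a library, scaled by TMM) in every library. The summed level of all 11 was 1633 to 1727 CPM in DMSO, 2274 to 2421 CPM in MI-503 and 2406 to 4720 CPM in the combination. The sum does not describe each marker. FLT3, which is among the 11, had means of 324 CPM in DMSO, 230 CPM in MI-503 and 193 CPM in the combination. The other myeloid markers are not given singly. T cell and erythroid markers summed to at most 0.852 and 0.251 CPM. KRT8 was the only epithelial or stromal marker at 1 CPM or more in every library. The part of these marker shifts in the results on the members was not tested, and in bulk RNA fewer cells of a type cannot be told apart from less RNA per cell.

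The 4 members with enough counts to be tested lie on different chromosomes, and the bases before a RefSeq start of each are shown because these 4 genes were all lower after treatment. RefSeq windows of GRCh38.p14 matched 6 of the 7 members by symbol, all but PKNOX2. The letters TGACAG, bound by MEIS proteins, and TGATTNAT, bound by PBX and HOX proteins together, were searched on both strands, and neither word overlaps the other where found. Capitals mark a match. Bases inside annotated exons are left out. For PBX3 the window shown is chr9:125747933-125748182 on the plus strand, for MEIS1 chr2:66434875-66435124 on the plus strand, for MEIS2 its second listed start at chr15:37098697-37098900 on the minus strand, and for PKNOX1 chr21:42974312-42974509 on the plus strand. The first listed MEIS2 window is not shown, since it overlaps annotated exons. The PBX3 and MEIS2 runs lie inside the gene spans given below, before a start further into the gene than the outermost.
PBX3: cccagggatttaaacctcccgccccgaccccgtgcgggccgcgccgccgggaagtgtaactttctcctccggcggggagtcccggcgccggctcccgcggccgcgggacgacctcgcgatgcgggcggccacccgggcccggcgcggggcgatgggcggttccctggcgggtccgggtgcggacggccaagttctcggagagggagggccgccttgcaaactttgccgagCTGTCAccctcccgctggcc
MEIS1: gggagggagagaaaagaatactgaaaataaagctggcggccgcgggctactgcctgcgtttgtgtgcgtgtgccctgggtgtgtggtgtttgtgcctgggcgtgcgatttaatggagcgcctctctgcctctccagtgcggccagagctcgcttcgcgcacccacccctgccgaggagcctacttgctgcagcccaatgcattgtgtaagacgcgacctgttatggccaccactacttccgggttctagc
MEIS2: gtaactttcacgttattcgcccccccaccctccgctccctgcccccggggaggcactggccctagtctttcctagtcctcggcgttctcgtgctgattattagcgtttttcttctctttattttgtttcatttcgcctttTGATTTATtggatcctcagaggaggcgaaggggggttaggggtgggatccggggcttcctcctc
PKNOX1: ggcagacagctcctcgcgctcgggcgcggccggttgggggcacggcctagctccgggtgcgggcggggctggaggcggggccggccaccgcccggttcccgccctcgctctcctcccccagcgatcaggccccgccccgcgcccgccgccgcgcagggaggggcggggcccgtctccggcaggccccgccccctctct

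Over the whole 300-base windows, of which the runs above are a part, the PBX3 promoter held 43 CpG dinucleotides, more than 95% of 35116 promoters, and PKNOX1 held 46, more than 97.1% of them. MEIS1 held 18 CpG, and the median was 14. The MEIS2 windows differed, with 35 CpG at the first listed start, more than 85.9% of promoters, and 16 at the second. The MEIS word was found in the PBX3 window, as its reverse complement CTGTCA, and occurs in 15.8% of all promoters. The PBX and HOX word was found at the second MEIS2 start, as TGATTTAT, and occurs in 2.82% of all promoters. No match was found in the windows of MEIS1 and PKNOX1, which says only that these letters are not there.

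The comparison of MI-503 with DMSO asked how Menin inhibition changed RNA of these cofactors. PBX3, MEIS1, MEIS2 and PKNOX1 were all lower, by 75.3%, 61.3%, 26.2% and 15.8% in the fit. An edgeR quasi-likelihood test with Benjamini-Hochberg adjustment called all 4 tested members lower at an adjusted p under 0.05, where 29.3% of all tested genes were called lower. PBX3 and MEIS1 were at least 2-fold lower, which held for 1.34% of all tested genes. Against DMSO the combination lowered the same 4 members, against 32.8% of all tested genes called lower, and it took PBX3 and MEIS1 down at least 2-fold, against 3.34%. MI-503 and the combination were compared with the same DMSO libraries, so these counts are not independent of each other. Adding PR-957 to MI-503 lowered MEIS2, PKNOX1 and PBX3, a set of 3 called lower where 23.8% of all tested genes were, and MEIS1 did not pass the test. No library of the treated groups overlapped DMSO for these 4 genes, where 29.1% of tested genes were lower without overlap in MI-503 and 31.2% in the combination. Between the combination and MI-503 this held for MEIS2 and PKNOX1, against 23.7% of tested genes.

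The median log2 fold change of the 4 tested members was −0.90 in MI-503 against DMSO, −1.25 in the combination against DMSO and −0.31 in the combination against MI-503. Over all tested genes it was −0.03, 0.01 and 0.00. MEIS3, PBX4 and PKNOX2 had too few counts for the test, at most 8 in any library, so these medians describe only the expressed members.

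**Figure D1:**
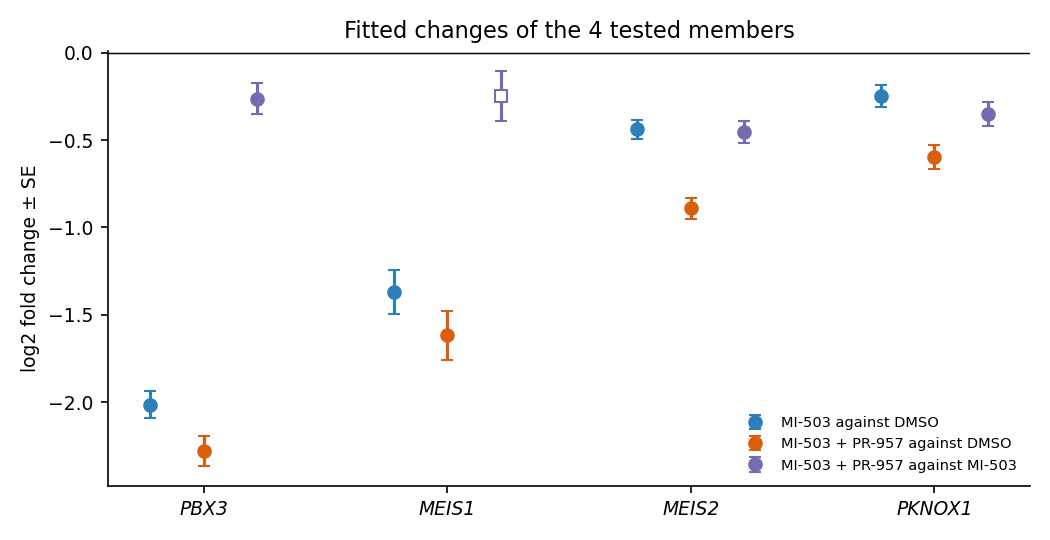
Fitted log2 fold change (y axis) of the 4 tested members in 3 comparisons, with bars of 1 SE. Filled circles passed the edgeR test at an adjusted p under 0.05 and the open square, MEIS1 in the combination against MI-503, did not. The changes against DMSO run from −2.28 for PBX3 in the combination to −0.25 for PKNOX1 in MI-503, while those against MI-503 all lie between −0.45 and −0.25.

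PBX3 is the DNA-binding partner that HOXA9 and MEIS1 share in KMT2A-rearranged leukemia. It lies on hg38 chromosome 9, 125747372 to 125967377, plus strand, with 11 merged exons and 3150 exon bases. In DMSO replicates 1 to 4 it was at 79.2, 85.2, 73.5 and 78.0 CPM, from 1551 to 2347 counts. In MI-503 replicates 1 to 4 the values were 19.5, 21.2, 17.6 and 19.6 CPM. Combination replicates 1, 2 and 4 held 17.0, 18.4 and 13.6 CPM. Every treated library lay far below every DMSO library, and the combination libraries overlapped those of MI-503, with replicate 4 the lowest of all. The mean was 79.0 ± 4.80 CPM (SD, n = 4) for DMSO, 19.5 ± 1.49 CPM (n = 4) for MI-503 and 16.3 ± 2.46 CPM (n = 3) for the combination.

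MI-503 changed PBX3 by −2.02 on the log2 scale (SE 0.08, edgeR adjusted p = 5.77e-12), and 0.184% of tested genes had a lower fold change. The combination changed it by −2.28 against DMSO (SE 0.09, edgeR adjusted p = 1.78e-12). Against MI-503 the combination changed it by −0.26 (SE 0.09, edgeR adjusted p = 0.0232), and all 3 combination libraries lay below the MI-503 mean. That last call was lost without combination replicate 4 (−0.19, edgeR adjusted p = 0.0637), without MI-503 replicate 2 (−0.21, edgeR adjusted p = 0.0837) and with only the libraries of those groups in the fit (edgeR adjusted p = 0.0566). Its adjusted p ran from 0.00266 to 0.0837 over 19 alternatives.

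PBX4, another PBX gene, lies on chromosome 19, 19561713 to 19618690, minus strand (11 merged exons, 1853 exon bases). Its counts were 2, 1, 1 and 1 in DMSO replicates 1 to 4, 1, 3, 2 and 3 in those of MI-503, and 4, 3 and 4 in the combination libraries. Sums over the groups were 5, 9 and 11 counts, close to the floor of 3 counts per library, which stands for 0.0708 to 0.15 CPM. PBX4 was barely detected in any group, and no difference could be shown at this depth.

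MEIS1, the cofactor that drives leukemia together with HOXA9, lies on chromosome 2, 66435125 to 66573869, plus strand (13 merged exons, 4566 exon bases). DMSO replicates 1 to 4 held 53.8, 54.6, 53.8 and 52.3 CPM. In MI-503 replicates 1 to 4 the values were 21.1, 22.7, 18.7 and 20.3 CPM. Combination replicates 1, 2 and 4 held 23.7, 15 and 12.5 CPM. All treated libraries lay below all DMSO libraries. Within the combination, replicate 1 lay above every MI-503 library and replicates 2 and 4 lay below every one. The spread of MEIS1 was therefore uneven, with a coefficient of variation of 1.82% in DMSO, 8.16% in MI-503 and 34.4% in the combination.

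The DMSO mean of MEIS1 was 53.6 ± 0.974 CPM (SD, n = 4) and that of MI-503 20.7 ± 1.69 CPM (n = 4), with a fitted change of −1.37 (SE 0.13, edgeR adjusted p = 1.52e-07). The combination stood at 17.1 ± 5.88 CPM (n = 3) and differed from DMSO by −1.62 (SE 0.14, edgeR adjusted p = 2.34e-08). Against MI-503 the change was −0.25 (SE 0.14, edgeR adjusted p = 0.174), with 2 of 3 libraries below the MI-503 mean. Without combination replicate 1, the library that also stood apart over all genes, it was −0.63 (edgeR adjusted p = 1.12e-06). Without combination replicate 4 it was −0.10 (edgeR adjusted p = 0.528). Testing every gene with a count called it as well (−0.24, edgeR adjusted p = 0.00669). Whether PR-957 lowered MEIS1 beyond MI-503 thus turned on single libraries and on the filter.

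MEIS2, a paralog of MEIS1, lies on chromosome 15, 36889204 to 37101311, minus strand (16 merged exons, 7508 exon bases). Its DMSO replicates 1 to 4 held 54.5, 55.3, 55.3 and 54.0 CPM. In MI-503 replicates 1 to 4 the values were 42.3, 40.7, 39.0 and 39.8 CPM. Combination replicates 1, 2 and 4 held 32.5, 29.1 and 26.6 CPM. The groups formed separate steps, with no overlap between any pair of groups. Means were 54.8 ± 0.652 CPM (SD, n = 4), 40.4 ± 1.42 CPM (n = 4) and 29.4 ± 2.93 CPM (n = 3).

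MEIS2 changed by −0.44 in MI-503 (SE 0.05, edgeR adjusted p = 4.33e-06) and by −0.89 in the combination against DMSO (SE 0.06, edgeR adjusted p = 1.27e-09). The combination lowered it by −0.45 against MI-503 (SE 0.06, edgeR adjusted p = 1.23e-05), with all 3 libraries below the MI-503 range. With all libraries, MEIS2 had the lowest fold change of the members in that comparison. Without combination replicate 1, MEIS1 lay lower (−0.63). MEIS2 was called lower in all 3 comparisons under each of the 19 alternatives, with combination replicate 1 left out among them.

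MEIS3, the remaining MEIS gene, lies on chromosome 19, 47403118 to 47422233, minus strand (16 merged exons, 3340 exon bases). Its counts were 8, 1, 4 and 4 in DMSO replicates 1 to 4, 2, 2, 0 and 1 in those of MI-503, and 6, 3 and 1 in combination replicates 1, 2 and 4. DMSO had the most counts, 17 in sum against 5 and 10, but the groups overlapped. Of its pseudogene copies, MEIS3P1 held 3 counts over all libraries.

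PKNOX1 (PREP1), which competes with MEIS proteins for PBX partners, lies on chromosome 21, 42974510 to 43033931, plus strand (11 merged exons, 5352 exon bases). DMSO replicates 1 to 4 held 30.3, 29.0, 27.2 and 31.6 CPM. In MI-503 replicates 1 to 4 the values were 24.4, 26.1, 24.5 and 24.3 CPM. Combination replicates 1, 2 and 4 held 18, 21.4 and 19.5 CPM. The groups did not overlap, although the steps were small, and replicate 1 was the lowest of the combination here. Means were 29.5 ± 1.87 CPM (SD, n = 4), 24.8 ± 0.882 CPM (n = 4) and 19.6 ± 1.70 CPM (n = 3).

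PKNOX1 changed by −0.25 in MI-503 (SE 0.06, edgeR adjusted p = 0.00323), where 23.5% of tested genes had a lower fold change. In the combination it changed by −0.60 against DMSO (SE 0.07, edgeR adjusted p = 8.59e-07) and by −0.35 against MI-503 (SE 0.07, edgeR adjusted p = 5.54e-04). All 3 calls remained under each of the 19 alternatives.

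PKNOX2, a paralog of PKNOX1, lies on chromosome 11, 125235037 to 125433389, plus strand (12 merged exons, 3624 exon bases). DMSO replicates 1 to 4 held 1, 1, 2 and 0 counts, and all 7 treated libraries held 0. All of these values lie under the floor of 3 counts, so no fold is given. When every gene with a count was tested, edgeR called no change of MEIS3, PBX4 or PKNOX2 in any comparison. At an unadjusted p under 0.05 there were 2 of these 3 genes in MI-503 against DMSO and none in the other comparisons. These 2 were MEIS3 (edgeR adjusted p = 0.0647) and PKNOX2 (edgeR adjusted p = 0.137). In the same fit, 9034 of all 26817 genes passed that unadjusted threshold in MI-503 against DMSO. The number was 11266 in the combination against DMSO and 8825 in the combination against MI-503.

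**Figure D2:**
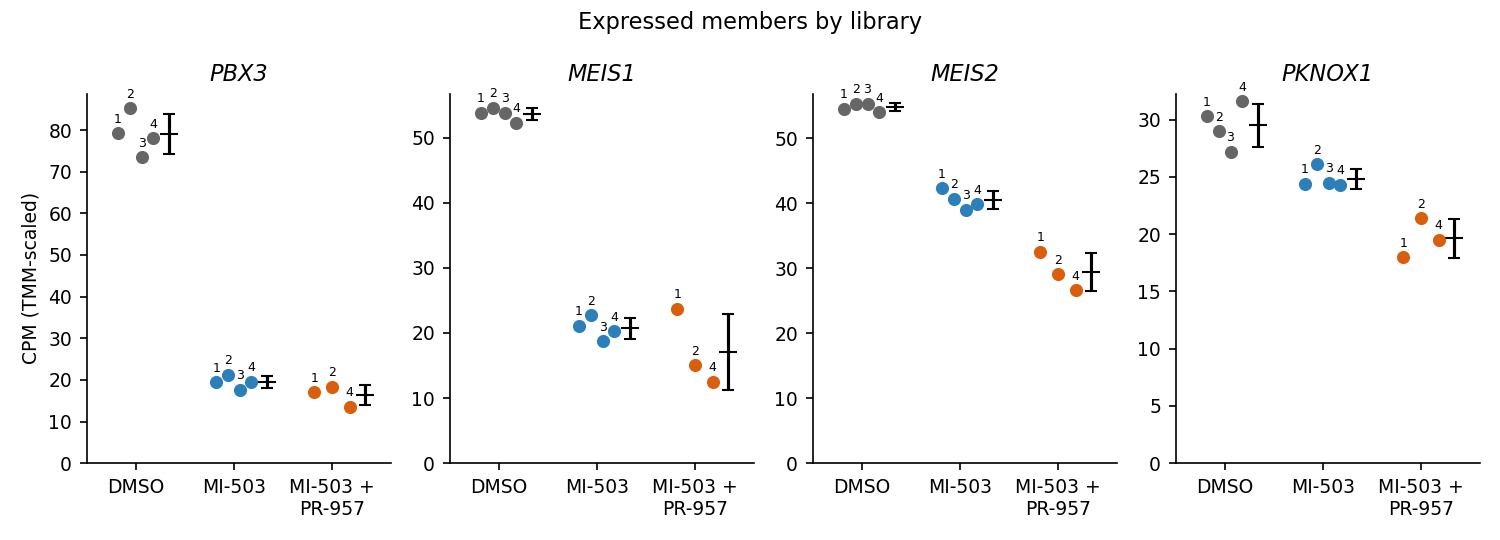
Level in CPM (y axis, from 0) of the 4 expressed members in each library, grouped by treatment, with the replicate number above each point and the group mean with 1 SD as a bar at its right. PBX3 drops from 73.5 to 85.2 CPM in DMSO to at most 21.2 CPM in treated cells, MEIS2 and PKNOX1 form 3 separate steps, and MEIS1 in combination replicate 1 (23.7 CPM) lies above all MI-503 libraries.

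Exons of the 7 members shared no bases with another gene. None of their 100-base exon windows recurred exactly elsewhere in hg38. Exons shorter than 100 bases and inexact copies were not searched, so a loss of multi-mapped fragments there was not tested.

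Levels of different genes were compared per kb of exon, as mean CPM per kb. In DMSO the order was PBX3 at 25.1, MEIS1 at 11.7, MEIS2 at 7.29 and PKNOX1 at 5.52 CPM per kb, and no neighbors in this order overlapped. MEIS3, PBX4 and PKNOX2 followed at 0.052, 0.0281 and 0.012 CPM per kb, with overlapping ranges. In MI-503 the order was PBX3 at 6.18, MEIS2 at 5.39, PKNOX1 at 4.64 and MEIS1 at 4.53 CPM per kb. PBX3 overlapped MEIS2 there, and PKNOX1 overlapped MEIS1. In the combination PBX3 at 5.18, MEIS2 at 3.92, MEIS1 at 3.74 and PKNOX1 at 3.67 CPM per kb all overlapped their neighbors. MEIS1 thus stood second in DMSO and level with PKNOX1 after treatment, and PBX3 stood closer to the other members than in DMSO.

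The summed level of the 7 members was 49.7 ± 1.72 CPM per kb for DMSO (SD, n = 4), 20.8 ± 1.09 for MI-503 (n = 4) and 16.6 ± 2.06 for the combination (n = 3). PBX3 made up 50.4% ± 1.33 of this sum in DMSO, 29.7% ± 0.834 in MI-503 and 31.2% ± 2.56 in the combination. MEIS2 made up 14.7%, 25.9% and 23.6%, and PKNOX1 11.1%, 22.3% and 22.4%. The share of MEIS1 was 23.6%, 21.8% and 22.2%. The share of PBX3 was thus lower in every treated library than in every DMSO library, and those of MEIS2 and PKNOX1 were higher. The share of MEIS1 in MI-503 (21% to 22.5%) lay below that in DMSO (23.1% to 24.7%) without overlap. In the combination the MEIS1 share (19.1% to 28.3%) overlapped that in DMSO. These shares are a description and were not tested.

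**Figure D3:**
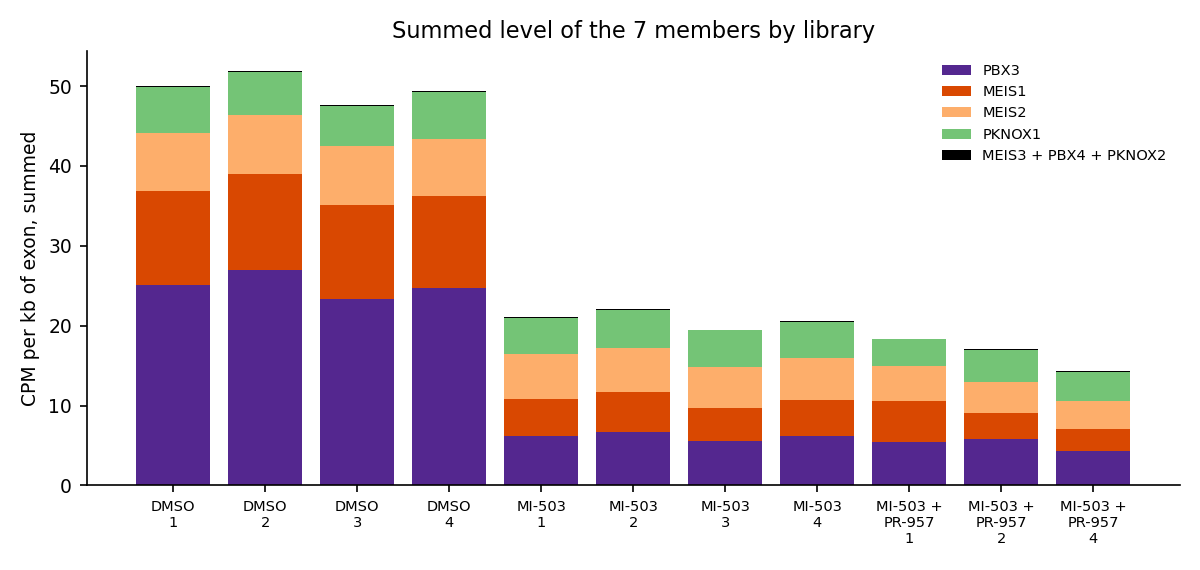
Summed level of the members in CPM per kb of exon (y axis, from 0) in each library, stacked by gene. The DMSO libraries reach 47.7 to 51.8, the MI-503 libraries 19.5 to 22.1 and the combination libraries 14.3 to 18.4 CPM per kb, and PBX3 at the base of each bar shrinks most, while MEIS3, PBX4 and PKNOX2 are too thin to see.

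Ratios of counts between members within a library do not depend on library scaling, and 6 ratios were compared between groups in 18 exact two-sided permutation tests. In DMSO replicates 1 to 4 the log2 ratio of PBX3 to MEIS1 counts was 0.56, 0.64, 0.45 and 0.58. In MI-503 replicates 1 to 4 it was −0.11, −0.10, −0.09 and −0.05. The combination libraries were spread, at −0.48, 0.30 and 0.12 in replicates 1, 2 and 4. PBX3 counts exceeded MEIS1 counts in every DMSO library and were fewer in every MI-503 library, whereas the combination had both.

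The mean PBX3 to MEIS1 log2 ratio differed between MI-503 and DMSO by −0.64 (SE 0.04). For PBX3 to MEIS2 the difference was −1.58 (SE 0.06), and for PBX3 to PKNOX1 it was −1.77 (SE 0.07). For MEIS1 to MEIS2 it was −0.94 (SE 0.05), and for MEIS1 to PKNOX1 −1.13 (SE 0.07). The MI-503 and DMSO libraries did not overlap in any of them. Each of these 5 differences had an exact permutation p of 0.0286, the smallest that 4 libraries against 4 allow, and an adjusted p of 0.0935. MEIS2 against PKNOX1 differed by −0.19 (SE 0.06, exact permutation p = 0.0571), with overlapping libraries. No result could pass after adjustment, because the smallest adjusted p that 18 such tests allow is 0.0571. An unadjusted p under 0.05 was found in 5 of them. All 6 ratios come from the same 4 genes and are not independent of each other. Ratios of other gene pairs were not tested. In the combination against DMSO the 5 ratios named first again did not overlap, with the smallest exact permutation p for 3 libraries against 4, 0.0571. Between the combination and MI-503 all 6 ratios overlapped, with exact permutation p from 0.114 to 0.914, and the sign of 4 of these 6 differences changed when single libraries were left out.

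**Figure D4:**
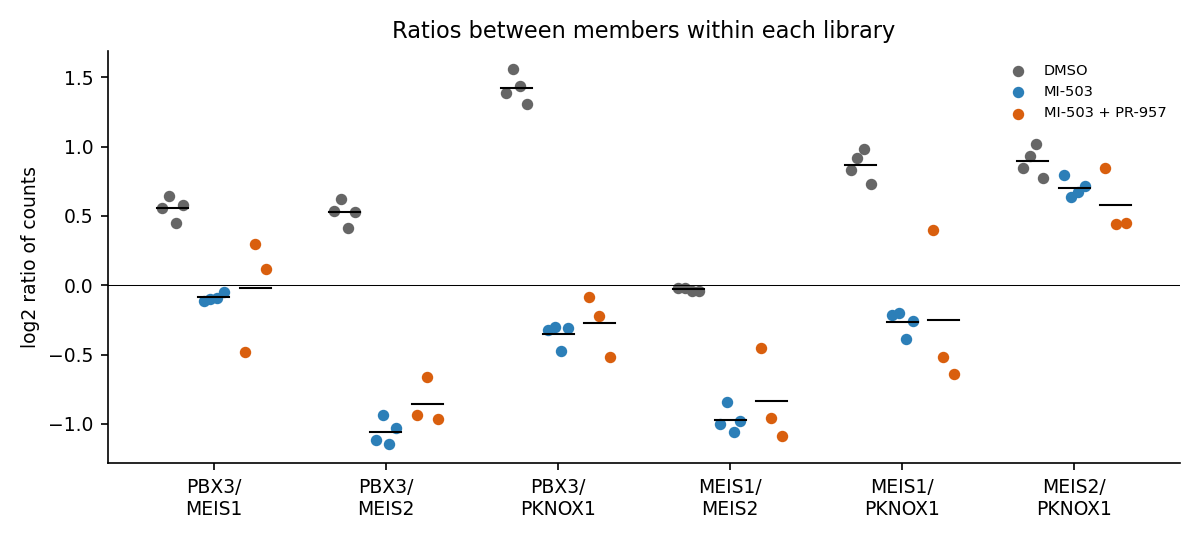
Log2 ratio of counts (y axis) for 6 pairs of members in each library, with lines at the group means. The DMSO libraries (grey) lie above the MI-503 libraries (blue) without overlap in all pairs but MEIS2/PKNOX1, and combination replicate 1 sets the widest spread of the ratios that hold MEIS1.

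Counts in the companion lists stand beside the shares of all tested genes called lower, given above, and called higher, which were 22% in MI-503, 31.7% in the combination against DMSO and 23.6% in the combination against MI-503. The lists are small and are described by count only. Other TALE genes and PBX partners were counted from a list of 12, of which 6 were tested. IRX6 held 4 counts over all libraries, and IRX1, IRX2, IRX4 and MKX held 0. In MI-503, PBX2 (another PBX gene), TGIF1 (a TALE repressor) and PBXIP1 (a PBX-interacting protein) were called higher, with log2 fold changes of 0.74, 0.19 and 0.21. IRX5 was lower (−0.53), and IRX3 (−0.10) and TGIF2 (−0.03) were not called. In the combination against DMSO the same 3 genes were higher, and TGIF2 (−0.36), IRX3 (−0.91) and IRX5 (−1.30) were lower. PBX2 thus went the other way from PBX3, with 1.29 ± 0.108 CPM in DMSO, 2.16 ± 0.22 CPM in MI-503 and 1.77 ± 0.143 CPM in the combination. Its value is uncertain because 96.1% of its 100-base exon windows recur on other contigs of hg38, and its call in the combination was lost without combination replicate 1 (edgeR adjusted p = 0.11), without DMSO replicate 3 (edgeR adjusted p = 0.0609), without a filter (edgeR adjusted p = 0.0627) and with DESeq2 (adjusted p = 0.069). The TGIF1 call in MI-503 was lost without DMSO replicate 4 (edgeR adjusted p = 0.0503). In the combination against MI-503, 3 of the list were lower (TGIF2, IRX3 and IRX5), TGIF1 and PBXIP1 were higher, and PBX2 was not called.

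Of 39 HOX genes, which encode the DNA-binding partners of the members, 17 were tested, 11 of the HOXA and 6 of the HOXC cluster, and none of the HOXB and HOXD clusters had enough counts. In MI-503, 8 of the 11 HOXA genes were lower and 3 of the 6 HOXC genes higher, where 29.3% and 22% of all tested genes were. In the combination against DMSO, 9 HOXA and 2 HOXC genes were lower (4 HOXC without combination replicate 1). In the combination against MI-503, 2 HOXA and 3 HOXC genes were lower, and the HOXA share was below the 23.8% of all tested genes. Without combination replicate 1 those counts were 4 and 5. The median log2 fold change of the 17 was −0.27, −0.47 and −0.23 in these comparisons.

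Of the 4 HOX genes with the highest mean level, HOXA11 was lower in MI-503 (−0.47, edgeR adjusted p = 1.78e-04), whereas HOXA13 (0.03), HOXA10 (−0.07) and HOXC4 (−0.04) were not called. All 4 were lower in the combination against DMSO, by −0.45 for HOXA13, −0.57 for HOXA10, −0.59 for HOXA11 and −0.78 for HOXC4. HOXA10 shares 29.9% of its exon bases with other annotated genes and HOXC4 22.4%, and fragments on such bases were not counted.

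Genes described in leukemia as targets of HOXA9 with MEIS1 formed a list of 15, of which 12 were tested. In MI-503, 6 were lower and 2 higher, in the combination against DMSO 9 were lower and 2 higher, and against MI-503 7 were lower and 1 higher. That 1 gene is LMO2, named after its values were seen, and its call was lost without combination replicate 2 and without combination replicate 4. The 5 with the smallest adjusted p in MI-503 were MEF2C (a myeloid transcription factor, −1.97), CDK6 (a cell cycle kinase, −0.80), PIM1 (a survival kinase, 0.75), FLT3 (a receptor kinase, −0.49) and FOXP1 (a transcription factor, −0.38). MEF2C stood at 203 ± 9.89 CPM (SD, n = 4) with DMSO, 51.9 ± 2.35 (n = 4) with MI-503 and 37.3 ± 6.34 (n = 3) with the combination, close in fold change to PBX3. PIM1 was higher against DMSO in both treated groups, unlike the members, but in the combination against MI-503 it was called lower (−0.47, edgeR adjusted p = 2.9e-04).

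Of 9 genes of the Menin and KMT2A complex, all tested, 6 were lower in MI-503 (3 with upper-quartile scaling factors), 7 in the combination against DMSO and 5 in the combination against MI-503. MEN1, which encodes Menin, was at 79.6 ± 2.64, 71.6 ± 1.93 and 63.2 ± 2.05 CPM. Its change of −0.15 in MI-503 (edgeR adjusted p = 0.00499) missed the threshold with upper-quartile factors (edgeR adjusted p = 0.0779). MEN1 was picked by its role, after its values were known.

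**Figure D5:**
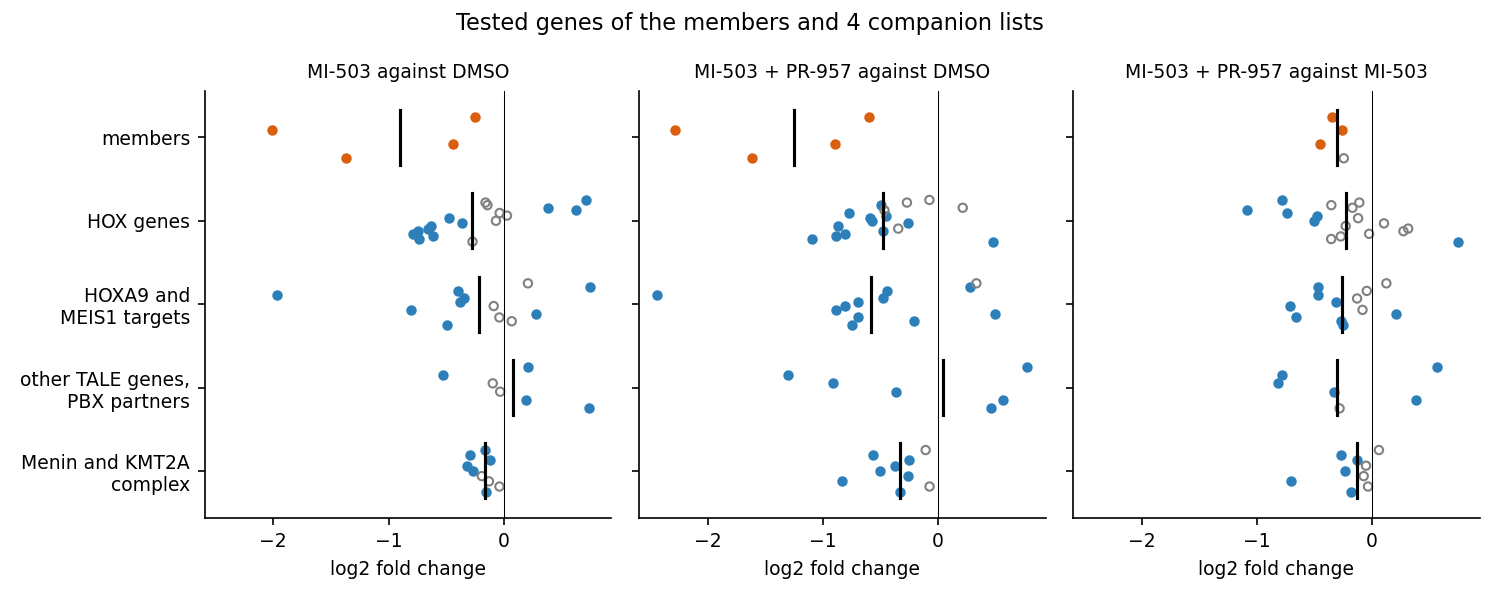
Log2 fold change (x axis) of each tested gene in the members and 4 companion lists for 3 comparisons, filled where the edgeR adjusted p was under 0.05 and open otherwise, with a black line at each list's median. PBX3 and MEIS1 lie left of every HOX gene in both comparisons with DMSO, and MEF2C is the single target gene at the level of PBX3.

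Genes within 10 kb of a member or inside its span were counted as well. MEIS1-AS2, antisense to MEIS1, lies inside the MEIS1 span at chromosome 2, 66439087 to 66440330. It held 0.555 ± 0.191 CPM (SD, n = 4) with DMSO, 0.269 ± 0.0799 (n = 4) with MI-503 and 0.184 ± 0.155 (n = 3) with the combination. Its change was −1.02 in MI-503 (edgeR adjusted p = 0.0402) and −1.31 in the combination against DMSO (edgeR adjusted p = 0.0142). The MI-503 call was lost without MI-503 replicate 1 (edgeR adjusted p = 0.0952), with upper-quartile factors (edgeR adjusted p = 0.056) and with DESeq2 (adjusted p = 0.0873). Counting ignored strand, so its fragments cannot be told apart from unspliced MEIS1 RNA, although it shares no exon bases with MEIS1. LOC107984127, inside the PBX3 span on the same strand, held 4, 3, 5 and 5 counts in DMSO replicates 1 to 4, 0, 1, 1 and 1 in MI-503 replicates 1 to 4 and 0 in the combination libraries. LINC01798, downstream of MEIS1, held 10, 8, 8 and 6 counts in DMSO, 1, 1, 6 and 0 in MI-503 and 5, 2 and 0 in the combination. Both were too low for the test. The treated libraries lay below all DMSO libraries for LOC107984127, and MI-503 replicate 3 reached the lowest DMSO count for LINC01798. LPAR2, a lysophosphatidic acid receptor gene close to PBX4, was higher in MI-503 (0.42, edgeR adjusted p = 2.6e-04) and in the combination against DMSO (0.41, edgeR adjusted p = 3.16e-04), and its change against MI-503 was not called (edgeR adjusted p = 0.986). The remaining 7 neighbors held 0 to 16 counts each over all libraries.

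Patterns over the 11 libraries were described by Pearson's r of log2 CPM with each of 10039 genes that averaged 5 CPM or more. These libraries share treatments and scaling, so most genes that respond to treatment correlate, and no p is given. Most like PBX3 were EFNA5 (r = 0.9967), SOCS2, CNOT6L, SUPV3L1 and SENP6. Most like MEIS1 were HSPD1 (r = 0.9929), RAB15, CCT4, PLAGL1 and ZNF521. Most like MEIS2 were ALDH5A1 (r = 0.9950), TEAD4, GAL, WDR3 and SOBP, and most like PKNOX1 were DLG1 (r = 0.9819), SUV39H2, TMEM131L, LYPLA1 and GTF3A. No member was among the 5 genes most like another member. The closest pair was MEIS1 and PBX3 (r = 0.9694), and the loosest was MEIS1 and PKNOX1 (r = 0.7930). PBX3 ranked 45 among the genes most like MEIS1, and MEIS1 ranked 128 among those most like PBX3.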

How the data were processed

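RNA was measured in 11 libraries, grouped by the labels. The authors deposited raw counts of read pairs per gene. The submitters' processing notes name Trimmomatic 0.39, STAR 2.7.10a, featureCounts 2.0.1 and DESeq2 with hg38. Per the file headers, pairs on exons of the RefSeq annotation were counted without regard to strand, and multi-mapped pairs and pairs shared by genes were dropped, which lowers genes with copies or shared exons. The alignment filter is not stated. Deposited tables of log2 fold changes and p-values were not used.

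The test on counts of 38557 genes used edgeR 4.0.16 under R 4.3.3 (filterByExpr with a minimum count of 10, TMM, quasi-likelihood test, 1 mean per group, all 11 libraries), giving 14683 tested genes, and called at an adjusted p under 0.05 over all of them. The biological coefficient of variation was 6.14%, and the test was checked on simulated counts. DESeq2 1.42.0, limma 3.58.1, other scaling, filters, a replicate block and leaving out each library were alternatives. CPM use TMM-scaled totals, and log2 CPM for likeness a prior count of 0.5. Floors cover counting error only. Ratios were tested with scipy 1.17.1, a test added after values were seen.

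The members and lists were chosen with earlier results of these data known. Named were all members, their neighbors and other TALE genes, 4 HOX genes of highest CPM, 5 targets of smallest adjusted p, up to 3 complex genes, and 5 genes most like each expressed member. Some genes of the lists are not reported here.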

Additional observations from a re-analysis of the deposited data

Results flagged for a closer look

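In groups of 4 libraries each member's highest and lowest library was compared with the nearest other library, relative to the range of the group. Of 13 groups examined, 2 held a library past Dixon's critical value, and chance gives about 1 in 20. PKNOX1 in MI-503 replicate 2, at 26.1 CPM against 24.3 to 24.5 CPM in the other MI-503 libraries, had a ratio of 0.889. PBX4 in DMSO replicate 1, at 0.0675 CPM, had a ratio of 0.930, which rests on 2 counts against 1 in each other DMSO library.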

How the results depend on the processing

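Each of 3 comparisons was recomputed under 19 alternatives. The number of members called stayed at 4 in both comparisons with DMSO and ran from 2 to 4, against 3, in the combination against MI-503. The replicate block also called 4, 4 and 3 and changed no call of a member. In the combination against MI-503 it gave −0.30 for PBX3 (edgeR adjusted p = 0.00307) and −0.30 for MEIS1 (edgeR adjusted p = 0.0802). Same-numbered libraries did not deviate together (r from −0.11 to 0.14 over 10 pairs, 1 over 0.1, against −0.14 to 0.12 for other pairs), so the numbers were not taken as pairs. Of 228 member fold changes recomputed, 223 kept direction and call, 3 lost it and 2 gained it, all 5 in the combination against MI-503 and given above. Levels per kb could not change with unshared exon bases, because the members share none. The cause of the changed calls was not tested.

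Values near 0 that were not called changed sign. For TGIF2 in MI-503 the change was 0.0316 with upper-quartile factors, 0.0213 with the stricter filter and 0.0167 with 2 groups only, and ran from −0.0609 to 0.0139 without single libraries. For HOXC4 in MI-503 it was 0.0268, 0.0164 and 0.0138 under those settings, and ran from −0.0522 to 0.0105 without single libraries. For LPAR2 in the combination against MI-503 it was 0.00470 with upper-quartile factors, 0.00305 without a filter and 0.00106 with the replicate block, and ran from −0.103 to 0.0424 without single libraries. Without a filter, 8 HOX genes were lower in the combination against MI-503, against 5. Depth limited MEIS3, PBX4 and PKNOX2.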
